A study of Mus musculus with 405 samples.

Results

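The genes described here encode the nuclear part of the mitochondrial respiratory chain and the ATP synthase. They were chosen by symbol: complex I genes start with Ndufa, Ndufb, Ndufc, Ndufs or Ndufv, complex II genes are Sdha, Sdhb, Sdhc and Sdhd, complex III genes start with Uqcr, complex IV (cytochrome c oxidase) genes start with Cox followed by a digit from 4 to 8, Cycs encodes cytochrome c, and ATP synthase genes start with Atp5. The rule found 93 of the 23893 genes in a table of read counts and 85 of the 13304 genes in a table of normalized values from a chemical screen. By known function, the 93 genes comprised 36 of complex I, 4 of complex II, 8 of complex III, 20 of complex IV, 15 of the ATP synthase (called complex V), and cytochrome c. Ndufa4 and its paralog Ndufa4l2 were placed with complex IV despite their names. The other 9 genes, Ndufaf1 to Ndufaf7, Atp5s and Atp5sl, encode factors that assist assembly or coupling and not stable subunits, so that 84 structural subunits remained, 76 of them in the screen.

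The cultures were primary cells from the cortex of mouse embryos, given as embryonic day 15 in the labels and as slightly earlier in the study's methods, from C57BL/6J dams crossed to CAST/EiJ males, and all of them had been given an inhibitor of cell division before treatment. On the seventh day in culture each culture received a single chemical or the vehicle for 24 h, after which its polyadenylated RNA was sequenced. The screen held 49 vehicle libraries and 344 libraries from 297 chemicals, of which 282 chemicals had 1 library. Topotecan, at 0.3 μM, had 32 libraries. The complex I inhibitors were rotenone at 0.01 μM (2 libraries), pyridaben at 0.1 μM, fenpyroximate at 0.1 μM and tebufenpyrad at 0.01 μM. The inhibitors of the outer quinone site of complex III were pyraclostrobin at 0.1 μM, trifloxystrobin at 10 μM, azoxystrobin at 0.1 μM, fluoxastrobin at 1 μM, famoxadone at 10 μM and fenamidone at 10 μM, with 2 libraries each for azoxystrobin, famoxadone and fenamidone. The count table held 4 libraries of pyraclostrobin at 0.1 μM and 4 of vehicle, and its first pyraclostrobin library is also the one in the screen. All doses were chosen by the study to be non-cytotoxic, and they differ between chemicals, so that classes are compared at unmatched doses.

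The respiratory chain passes electrons from NADH (through complex I) or succinate (through complex II) to ubiquinone, then through complex III and cytochrome c to complex IV, where oxygen is reduced. Complexes I, III and IV pump protons out of the matrix, and the ATP synthase uses their return flow to make ATP. Most subunits are made from nuclear genes, each protein being imported into the mitochondrion, while a small catalytic set is encoded by mitochondrial DNA. None of the mitochondrially encoded subunits was in either table, so the data concern the nuclear side alone.

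The 8 counted libraries held from 2409623 to 7833440 reads on genes, and levels are given as CPM, the count scaled to library size after TMM. The vehicle and the pyraclostrobin library numbered 1 stood apart from the others of their groups. The chi-square statistic per degree of freedom over genes was 18.996 to 26.7 between vehicle library 1 and the other vehicle libraries and 2.19 to 2.68 among these others. It was 7.83 to 10.7 between pyraclostrobin library 1 and the others and 1.79 to 2.96 among those, so no pair was a duplicate. Counts of calls, medians by complex and the genes where it matters most are therefore also given without vehicle library 1. That fit keeps pyraclostrobin library 1 without the vehicle library of the same number, so it is unbalanced in this respect. Markers of cell types also moved with treatment: the summed CPM of 12 neuronal markers was 4218 to 5637 with pyraclostrobin and 10536 to 10962 with vehicle, and that of 10 markers of mural cells and fibroblasts was 1277 to 1785 against 104 to 228. The sums for 10 astrocyte markers were 1278 to 4196 against 830 to 1620, for 10 microglial markers 123 to 228 against 35.5 to 46.9, and for 10 markers of the oligodendrocyte lineage (9 with counts) 219.7 to 339 against 120 to 226. The neuronal markers were thus abundant in every library, and markers of the other cells of the cortex were present too. In such bulk samples, fewer cells of a type and less RNA per cell cannot be told apart, and the part of cell composition in any result below was not tested.

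In vehicle cultures the catalytic core of the ATP synthase was the most abundant product of the family. Levels between genes are compared as mean CPM per kilobase of the longest coding transcript in the 4 vehicle libraries. Atp5b, the catalytic β subunit, stood at 421 CPM per kilobase, and Atp5a1, the α subunit, at 295. The next levels were 264 for Atp5g3, a proton-carrying ring subunit, 261 for Cox4i1, 258 for Cox6a1 and 193 for Cox8a. The median over genes was 68.8 for complex III, 56.9 for complex II, 35.01 for complex V, 29.6 for complex I and 12.1 for complex IV, where tissue-specific isoforms pull the median down. The 9 assembly genes had a median of 11.02 CPM per kilobase.

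The isoform pairs split strongly in these cultures. Cox4i1 was counted at 128 to 289 CPM in the vehicle libraries, while its lung- and hypoxia-associated isoform Cox4i2 had 3 counts over all 8 libraries. Of the muscle isoforms, Cox6a2 had 44 counts in all, Cox7a1 had 5 and Cox8b had 0. The testis-type Cox8c also had 0 counts and Cox7b2 had 3. Ndufa4l2 had 13 counts, 8 of them in vehicle library 1, against 22.1 to 64.9 CPM for Ndufa4 in vehicle. Of the 3 genes for the same ring subunit of the ATP synthase, Atp5g3 had 147 to 302 CPM in vehicle, Atp5g1 had 2.34 to 8.20 CPM and Atp5g2 had 11 counts in all. A count of 0 here is a limit of depth and does not show absence.

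Several ubiquitous subunits were counted far below the rest, and many of these genes have near-identical copies elsewhere in the genome. A copy was defined as an alignment outside the gene itself, on the mm9 assembly that the count table uses, with at least 95% identity over at least 80% of the coding sequence. Of the 84 structural subunits, 22 had 1 or more such copies, and their median level was 7.00 CPM per kilobase against 44.5 for the 62 without. Atp5l, with 8 copies, was at 1.00 CPM per kilobase, Ndufb4 with 2 copies at 2.06, and Cox7c with 4 copies at 7.50. Cycs, with 5 copies, was at 4.71, with a longest coding transcript of 3123 bases. A long transcript also lowers this measure: Ndufb2, without a copy, was at 2.75 with one of 4371 bases. The plot of levels by copies shows the shift, with both groups overlapping. Reads that fit several places equally well cannot be assigned to 1 gene, and how the counting treated them was not tested, so the levels of these 22 genes are uncertain.

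**Figure D1:**
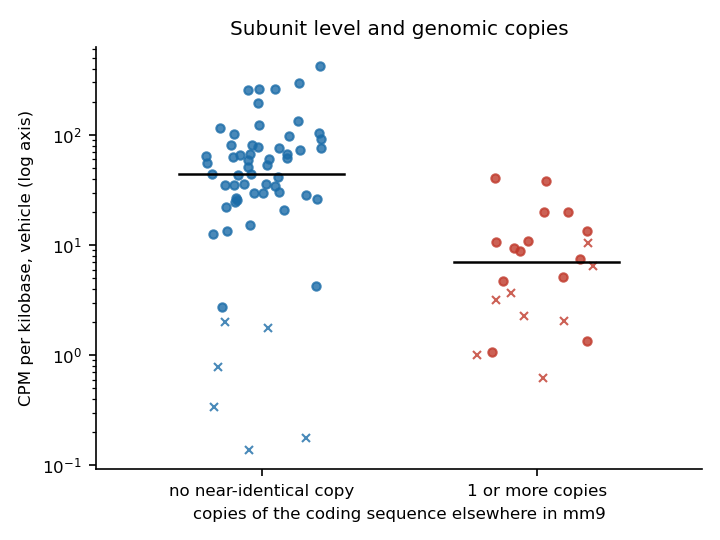
Mean level of each structural subunit in the 4 vehicle libraries of the count table (CPM per kilobase, log axis), for genes without and with a near-identical copy of the coding sequence in mm9; circles passed the filter on low counts, crosses did not, lines are medians, and 2 genes with 0 counts are left out of the points. The medians are 44.5 and 7.00 CPM per kilobase.

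Of the 93 genes, 77 passed the filter for testing, which asked for at least 10 counts in at least 4 libraries. The 16 that did not pass had 0 to 83 counts in all. Of them, 7 are tissue isoforms (Cox4i2, Cox6a2, Cox7a1, Cox7b2, Cox8b, Cox8c and Ndufa4l2), 8 have copies as defined above (Atp5g2, Atp5k, Atp5l, Cox6c, Ndufb4, Ndufs5, Ndufs6 and Uqcr11), and the last is Ndufc1 with 66 counts. Nothing can be said here of how these genes responded to pyraclostrobin.

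Pyraclostrobin, a strobilurin fungicide that blocks complex III, changed 1 of the 77 genes at an adjusted p under 0.01 (edgeR quasi-likelihood test), whereas 21.3% of all 12324 genes tested were called. The 1 gene was Cox6b2, which rose. A further 4 genes had an unadjusted p under 0.05 (Cycs, Ndufaf3, Ndufv3 and Atp5s), and DESeq2 also called 1 gene, the same Cox6b2. The median log2 fold change was -0.06 over the 77 genes and -0.002 over all genes. By complex, the median was -0.05 for 32 genes of complex I, 0.06 for 4 of complex II, 0.04 for 7 of complex III, -0.15 for 12 of complex IV, -0.01 for 12 of complex V and -0.18 for the 9 assembly genes. Without vehicle library 1 these medians were 0.21, 0.41, 0.32, 0.17 and 0.31 for complexes I to V and -0.05 for the assembly genes. For 57 of the 77 genes the 95% confidence interval lay within 1 log2 unit of no change on both sides, so a doubling or halving was outside the interval for these but not for the other 20. Among the calls of all genes, 12.1% of genes rose and 9.22% fell.

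**Figure D2:**
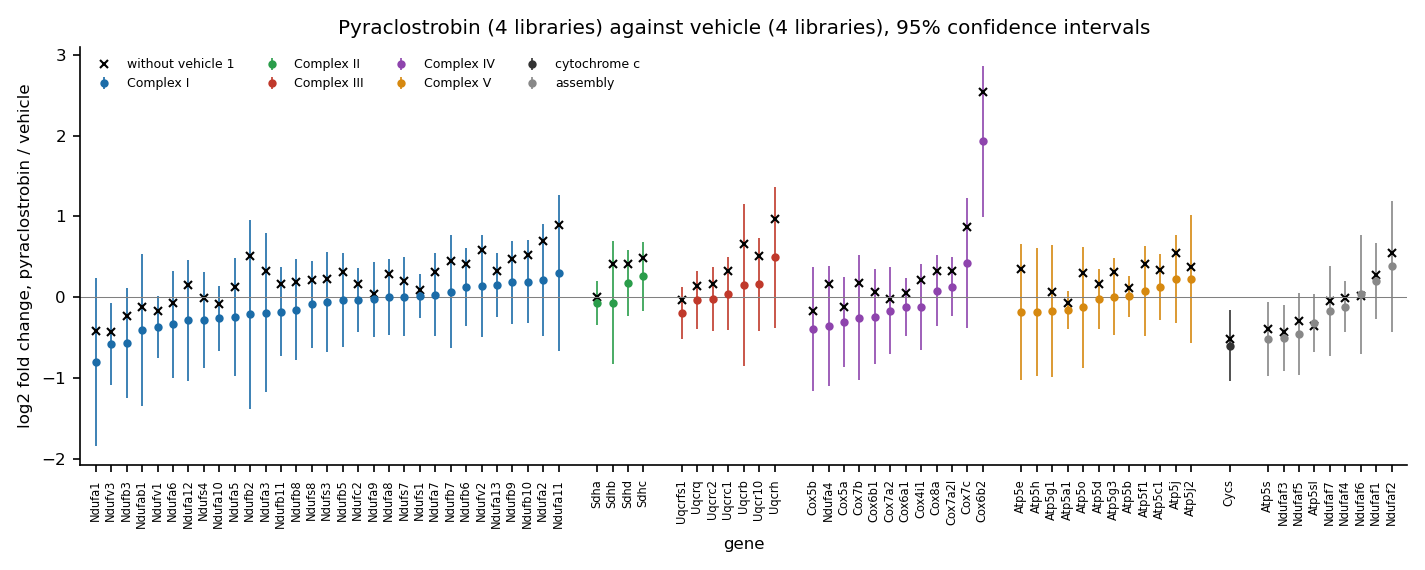
Log2 fold change (pyraclostrobin over vehicle) with 95% confidence interval for 76 of the 77 tested genes, grouped by complex and ordered by value; crosses give the same fold change without vehicle library 1. Cox6b2, at 1.93, is the 1 gene called, and the crosses sit above the points for most subunits.

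Cox6b2 encodes an isoform of a complex IV subunit that is best known from testis and sits at the side facing the intermembrane space. It was counted at 34.5, 27.4, 27.8 and 32.4 CPM in pyraclostrobin libraries 1 to 4 and at 18.5, 4.67, 7.41 and 3.15 CPM in vehicle libraries 1 to 4. All pyraclostrobin libraries were above all vehicle libraries, the highest vehicle value being that of library 1. The means were 30.5 ± 3.497 and 8.44 ± 6.96 CPM (SD, n = 4 each), and the log2 fold change was 1.93 with a standard error of 0.42 (edgeR adjusted p = 0.0047). Its ubiquitous counterpart Cox6b1 had 42.4, 36.1, 25.9 and 25.3 CPM with pyraclostrobin and 62.1, 27.6, 32.3 and 32.4 CPM with vehicle, and these ranges overlapped. The log2 fold change of Cox6b1 was -0.24, with a 95% confidence interval of -0.83 to 0.35 (edgeR adjusted p = 0.53), and it was 0.06 without vehicle library 1. In vehicle, per kilobase, Cox6b1 was at 76.5 and Cox6b2 at 15.3 CPM, so the rise concerned the minor isoform.

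The call for Cox6b2 was close to the threshold. It held with DESeq2 (log2 fold change 1.87, adjusted p = 0.00016) and grew to 2.55 without vehicle library 1, but its edgeR adjusted p was 0.011 to 0.019 when any 1 of 6 other libraries was left out, with fold changes of 1.77 to 1.94. Without vehicle library 4 it was 1.61 (adjusted p = 0.0099). Cox6b2 lies on chromosome 7 from 4703396 to 4704696 of mm9 on the minus strand, and no exon of another gene of the annotation overlapped it.

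**Figure D3:**
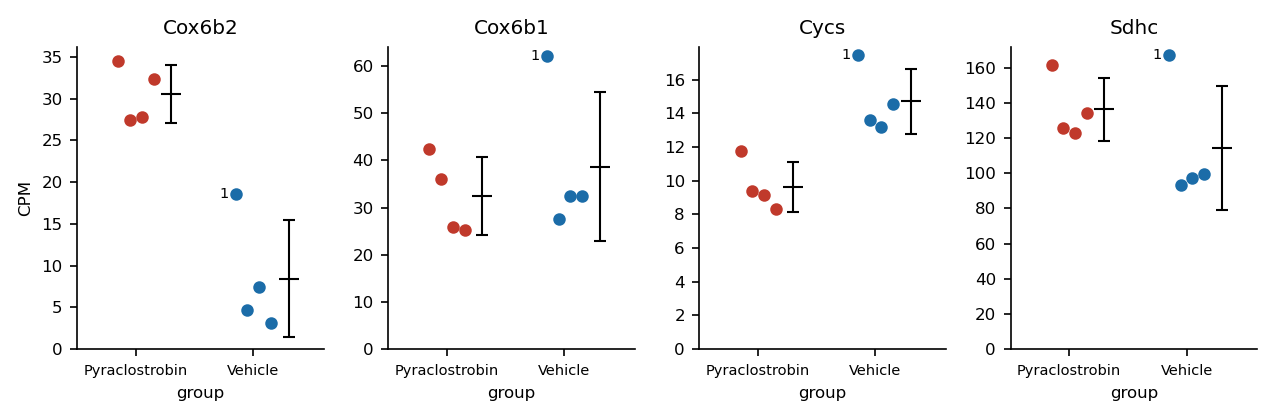
CPM of Cox6b2, Cox6b1, Cycs and Sdhc in each of the 4 pyraclostrobin and 4 vehicle libraries (points, numbered 1 to 4 from left to right, with vehicle library 1 marked), with mean and SD beside them. The groups do not overlap for Cox6b2 and Cycs, and vehicle library 1 is the highest vehicle value in all 4 panels.

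The upstream sequences of the complex IV pair and of 2 further genes are shown because these genes carry the contrast between an isoform that moved and products that did not pass the test. They are the 250 bases before the annotated start, 5′ to 3′, from RefSeq on GRCm38.p6, all on the minus strand, with matches to the motifs given below in capitals (CCAAT or ATTGG and, in Cox6a1 alone, the longer run of capitals that is the NRF1 motif, which reads the same on both strands).
Cox6b2, chr7:4753095-4753344: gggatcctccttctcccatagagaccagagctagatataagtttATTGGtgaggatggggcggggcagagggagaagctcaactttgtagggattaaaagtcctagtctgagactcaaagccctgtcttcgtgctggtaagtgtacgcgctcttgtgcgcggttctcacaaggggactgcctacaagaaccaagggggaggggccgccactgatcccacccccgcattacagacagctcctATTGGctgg
Cox6b1, chr7:30626115-30626364: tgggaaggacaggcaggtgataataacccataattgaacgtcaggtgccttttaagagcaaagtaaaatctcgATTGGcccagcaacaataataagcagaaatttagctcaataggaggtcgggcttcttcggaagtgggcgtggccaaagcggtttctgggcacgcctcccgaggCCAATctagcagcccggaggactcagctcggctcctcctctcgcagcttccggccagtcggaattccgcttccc
Cox6a1, chr5:115348959-115349208: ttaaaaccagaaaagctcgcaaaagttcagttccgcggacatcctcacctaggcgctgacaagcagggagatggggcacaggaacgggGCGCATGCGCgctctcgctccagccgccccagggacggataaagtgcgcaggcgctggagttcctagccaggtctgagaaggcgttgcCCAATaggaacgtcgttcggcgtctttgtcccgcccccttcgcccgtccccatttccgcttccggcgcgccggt
Cycs, chr6:50566570-50566819: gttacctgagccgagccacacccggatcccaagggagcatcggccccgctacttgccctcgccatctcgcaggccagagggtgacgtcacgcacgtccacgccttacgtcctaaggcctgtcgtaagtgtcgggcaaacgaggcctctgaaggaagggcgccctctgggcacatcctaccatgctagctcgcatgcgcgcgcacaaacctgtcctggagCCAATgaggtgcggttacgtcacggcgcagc
Both genes of the Cox6b pair held 2 CCAAT matches in this window, Cycs held 1, and Cox6a1 held 1 beside its NRF1 match. The exact letters of sites known from respiratory chain promoters were then counted on both strands over the same 250 bases, in 74 promoters of 69 subunit genes and in all 32851 promoters of the RefSeq table. The NRF1 motif, the run of 10 capitals shown for Cox6a1 and the site of a regulator of nuclear mitochondrial genes, was in 5.41% of the subunit promoters (Atp5g2, Atp5k, Cox6a1 and Ndufa11) and in 0.782% of all. CCGGAAGT, the site of GABPA, was in 4.05% against 2.88% (Atp5h, Uqcr11 and Uqcrh), AAGATGGC, the site of YY1, in 1.35% against 1.57%, and TCAAGGTCA, the site of ESRRA, in 1.35% against 0.387%. The CCAAT letters were in 41.9% against 33.9%. TATAAA, the core of the TATA box, was in 9.46% of subunit promoters against 12.4% of all. These matches are descriptions of letters in a window and were not tested.

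Cycs, the mobile carrier between complexes III and IV, was lower with pyraclostrobin but did not pass the threshold. It had 11.8, 9.39, 9.13 and 8.29 CPM with pyraclostrobin and 17.5, 13.6, 13.2 and 14.6 CPM with vehicle. The groups did not overlap, as for 35.2% of all genes tested. The log2 fold change was -0.60, with a standard error of 0.20 and a 95% confidence interval of -1.04 to -0.16 (edgeR adjusted p = 0.037), and it was -0.52 without vehicle library 1. With trends on transcript length and GC content removed it was -0.69 and passed the threshold (edgeR adjusted p = 0.0092). The 5 copies of its coding sequence make the level uncertain.

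The catalytic core of complex I, which carries the flavin and the iron-sulfur clusters, showed no call in the fit of all libraries. Ndufs1, the largest subunit, had 89.5, 87.9, 75.7 and 82.5 CPM with pyraclostrobin and 95.6, 77.1, 83.7 and 75.3 CPM with vehicle, a log2 fold change of 0.02 (95% confidence interval -0.25 to 0.29). For Ndufs3, Ndufs7 and Ndufs8 the log2 fold changes were -0.06, 0.01 and -0.09. Ndufv1, which binds NADH and flavin, was at -0.37 (95% confidence interval -0.76 to 0.01, edgeR adjusted p = 0.12), and its partner Ndufv2 at 0.14. Without vehicle library 1 the values were 0.09 for Ndufs1, 0.22, 0.21 and 0.21 for Ndufs3, Ndufs7 and Ndufs8, and -0.17 for Ndufv1, none of them called. Ndufv2 was at 0.58 in that fit and was called higher (edgeR adjusted p = 0.0016). Over all 32 tested genes of complex I the fold changes ran from -0.80 (Ndufa1) to 0.30 (Ndufa11), with 13 positive and 19 negative.

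Complex II couples the citric acid cycle to the chain, and its 4 genes all had intervals within 1 log2 unit of no change. Sdha, the flavoprotein, had 192, 179, 159 and 159.6 CPM with pyraclostrobin and 211, 183, 168 and 165 CPM with vehicle. Its log2 fold change was -0.08 (95% confidence interval -0.35 to 0.19). The membrane anchors Sdhc and Sdhd were at 0.26 and 0.18. Sdhc had 162, 126, 123 and 134 CPM against 167, 93.4, 97.4 and 99.3 CPM, so that only vehicle library 1 reached the range of the pyraclostrobin libraries. In complex III, the Rieske iron-sulfur protein Uqcrfs1 was at -0.20 (95% confidence interval -0.52 to 0.12), and the core proteins Uqcrc1 and Uqcrc2 at 0.04 and -0.02. In complex V, Atp5a1 was at -0.16 (95% confidence interval -0.40 to 0.07) and Atp5b at 0.01 (-0.24 to 0.26), the latter with 782 to 860 CPM with pyraclostrobin and 733 to 985 CPM with vehicle. Without vehicle library 1, Sdha was at 0.003, Uqcrfs1 at -0.04, Uqcrc1 at 0.32, Uqcrc2 at 0.17, Atp5a1 at -0.08 and Atp5b at 0.12, none of them called. Sdhc and Sdhd were called higher in that fit, at 0.49 and 0.41 (edgeR adjusted p = 0.0040 and 0.0085).

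Vehicle library 1 was high for nearly the whole family. For 64 of the 68 tested structural subunits it had the highest CPM of the 8 libraries, and all 68 were above the mean of vehicle libraries 2 to 4. Relative to that mean, the median subunit was 0.93 log2 units higher in vehicle library 1, against 0.08 for all genes tested. Pyraclostrobin libraries 1 to 4 stood at 0.38, 0.26, 0.12 and 0.22, and vehicle libraries 2 to 4 between -0.05 and 0.05. The shift was shared by complexes I, II, III, IV and V (0.95, 0.77, 0.91, 0.91 and 0.85) and was smaller for the assembly genes (0.39). Short transcripts in general moved with it: in vehicle library 1 the median was 0.78 for 487 genes with a transcript under 1000 bases and -0.45 for 2491 genes with one over 5000 bases. In pyraclostrobin libraries 1 to 4 the median of the same 487 genes was 0.26, 0.20, 0.18 and 0.16. The median longest transcript is 955 bases for the 93 genes and 2517 for all genes of the table. The cause of the shift was not tested.

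**Figure D4:**
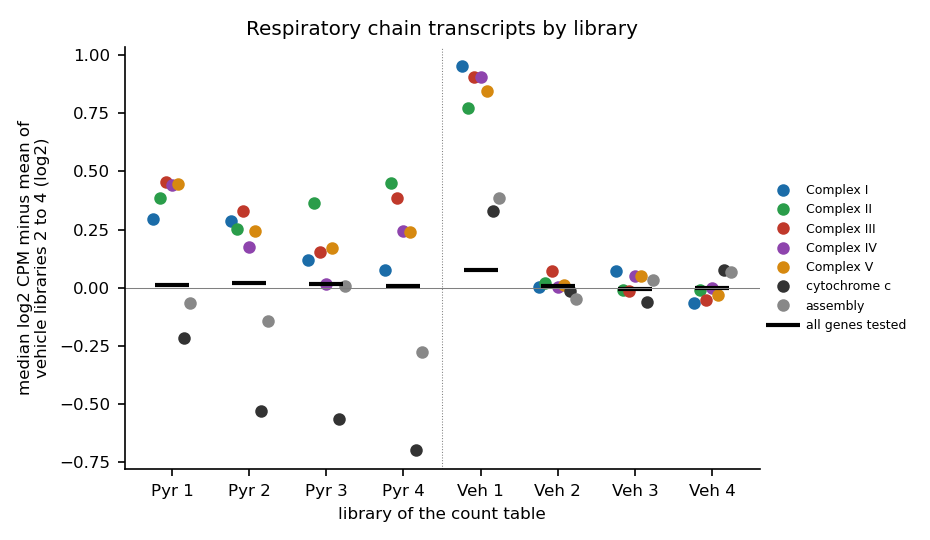
Median log2 CPM of the genes of each complex in each of the 8 libraries of the count table, minus the mean of vehicle libraries 2 to 4 for the same genes; black bars give all genes tested. Complexes I to V lie at 0.77 to 0.95 in vehicle library 1, between -0.07 and 0.07 in vehicle libraries 2 to 4, and at 0.02 to 0.46 with pyraclostrobin, where cytochrome c lies at -0.70 to -0.22.

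The direction of the family as a whole turned with that library. Without vehicle library 1, the median log2 fold change over 76 genes was 0.20 in place of -0.06, with 56 positive, against 0.02 for all genes. Of these, 7 genes were then called and all rose: Cox6b2 (2.55), Ndufa2 (0.70), Ndufv2 (0.58), Atp5j (0.55), Ndufb10 (0.53), Sdhc (0.49) and Sdhd (0.41). With length and GC trends removed as well, the median was 0.07 and 6 genes were called. Ndufa2, Atp5j and Sdhd were no longer called, while Ndufa11 (1.04) and Uqcrc1 (0.38) were called higher in addition. The share called among all genes was 33.2% without vehicle library 1, so 7 of 76 was still under it, and 33.5% with the trends removed as well. Leaving out both libraries numbered 1 gave 10 of 74 genes called, all higher, and a median of 0.15. The share called among all genes was then 39.8%. Ndufv2, for example, had 82.0, 68.8, 64.7 and 72.3 CPM with pyraclostrobin against 45.1, 50.8 and 47.4 CPM in vehicle libraries 2 to 4 and 121 CPM in vehicle library 1. Compared within the libraries numbered 1, 3 of 68 subunits were higher with pyraclostrobin and the median difference was -0.60. Within the libraries numbered 2 to 4, 50 of 68 were higher and the median difference was 0.16. In the same order, 6175 and 6286 of all 12324 genes tested were higher. Of 487 genes with a transcript under 1000 bases, 131 and 307 were higher, with medians of -0.49 and 0.15. Cox6b2 was higher with pyraclostrobin in both comparisons (0.88 and 2.47), Cycs was lower in both (-0.55 and -0.60), and the median of the 9 assembly genes was lower in both (-0.35 and -0.14).

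Genes that build and regulate the chain also showed few calls beside the 21.3% of all genes. Among 37 tested assembly factors outside the symbol rule, Coa6, a copper-delivery factor for complex IV, rose by 0.90 on the log2 scale and Ttc19, which acts in maturation of complex III, fell by 0.51. The median of this list was -0.06. None of the 13 tested regulators of mitochondrial gene expression was called by edgeR. An unadjusted p under 0.05 was found for 3 of them, the largest differences being those of Gabpa (0.71, adjusted p = 0.014) and Pprc1 (0.51, adjusted p = 0.014), and DNA-packaging Tfam was at 0.06 and the coactivator Ppargc1a at -0.31. Without vehicle library 1, where 33.2% of all genes were called, 3 of 36 assembly factors were called (Coa6 at 1.01 and the copper chaperone Cox17 at 1.65 higher, Ttc19 at -0.54 lower), and so were 2 regulators, Gabpa (0.76) higher and Ppargc1a (-0.43) lower. Of 16 genes of the citric acid cycle and pyruvate dehydrogenase, 1 was called: Suclg2, the GTP-forming subunit of succinyl-CoA ligase, at 2.23. It had 23.9, 23.7, 18.6 and 14.2 CPM with pyraclostrobin and 5.71, 3.11, 4.85 and 3.45 CPM with vehicle. Without vehicle library 1, Suclg2 was at 2.34, and Suclg1 (0.52) and Dlat (-0.42), a subunit of pyruvate dehydrogenase, were called too. Of the neuronal markers, 10 of 12 fell (median -1.12), while 8 of 9 tested mural and fibroblast markers, 8 of 8 microglial, 2 of 9 astrocyte and 2 of 7 oligodendrocyte-lineage markers rose, with 1 of the last list falling. In the fit without vehicle library 1, 11 of 12 neuronal markers fell and 7 of 9 astrocyte markers rose.

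The screen gives each gene as a deviation from its own median over libraries, so that it holds differences and no levels, and values below are on the log2 scale. Each chemical entered as the median of its libraries, and inhibitors of complex III (6 chemicals) and of complex I (4 chemicals) were set against all other chemicals in 1 limma fit. None of the 85 genes was called for complex III inhibitors at an adjusted p under 0.05, with 1 at an unadjusted p under 0.05, whereas 21.1% of all 13304 genes were called (7.22% higher and 13.9% lower). None was called for complex I inhibitors either, with 4 at an unadjusted p under 0.05, against 5.88% of all genes (0.932% higher and 4.95% lower). With a variance trend in limma both counts remained 0. The contrast of complex III with complex I inhibitors called 0 of the 85 genes, with 1 at an unadjusted p under 0.05, and 0 of all genes.

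The median difference over the 85 genes was -0.03 for complex III inhibitors and 0.03 for complex I inhibitors, against -0.005 and 0.0002 for all genes. By complex, complex III inhibitors gave medians of -0.03 (complex I), 0.04 (complex II), -0.01 (complex III), -0.04 (complex IV) and -0.03 (complex V). Complex I inhibitors gave 0.05, 0.11, 0.03, 0.03 and -0.01 in the same order. The 95% confidence interval lay within 0.5 log2 units of 0 on both sides for 66 of the 85 genes with complex III inhibitors and for 55 with complex I inhibitors. The complex whose subunit is the target thus did not stand out in the medians, whether I or III. In the same fits, 12 of 12 neuronal markers fell with complex III inhibitors (median -0.47) and 8 of 12 with complex I inhibitors (median -0.30), and 7 and 2 of 9 mural and fibroblast markers rose. By chemical, the neuronal median was -0.83 for trifloxystrobin, -0.81 for pyraclostrobin, -0.71 for fenamidone and -0.56 for famoxadone. It was -0.07 for fluoxastrobin and 0.02 for azoxystrobin. Among complex I inhibitors it ran from -0.64 for fenpyroximate to 0.007 for tebufenpyrad. The study saw no superoxide from fluoxastrobin or azoxystrobin at the doses sequenced. The class results thus average over unlike chemicals, and no fit left out both of these.

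Sdhc had the smallest unadjusted p with complex III inhibitors. Its values were 0.05 and -0.20 for azoxystrobin, 0.09 and 0.07 for famoxadone, 0.10 and 0.11 for fenamidone, 0.14 for fluoxastrobin, 0.23 for pyraclostrobin and 0.16 for trifloxystrobin. Of the 9 libraries, 8 were above 0 and the second azoxystrobin library was below, and all 9 lay within the range of the vehicle libraries, -0.34 to 0.26. The difference from other chemicals was 0.11 with a 95% confidence interval of 0.01 to 0.21 (limma adjusted p = 0.14). Leaving out azoxystrobin gave 0.14 and an adjusted p of 0.049. With complex I inhibitors the 5 libraries lay between 0.04 and 0.19, and the difference was 0.13, with an interval of 0.01 to 0.26 (limma adjusted p = 0.27). The pyraclostrobin library here is the one numbered 1 in the count table.

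Cox6b2 was above 0 in 7 of the 9 complex III libraries but varied widely. It stood at 1.07 for pyraclostrobin, 0.98 and 1.08 for famoxadone, 0.68 and 1.33 for fenamidone, 0.46 for trifloxystrobin, -0.24 for fluoxastrobin, and -0.73 and 0.88 for azoxystrobin. The libraries below 0 were of fluoxastrobin and azoxystrobin, the complex III inhibitors with neuronal medians near 0, but the second azoxystrobin library was at 0.88. All libraries of the other chemicals of the class were above 0. The 49 vehicle libraries ranged from -2.01 to 1.71, so that all 9 values lay inside the vehicle range. The class difference was 0.63 with an interval of -0.09 to 1.35 (limma adjusted p = 0.24), and for complex I inhibitors it was 0.11 with an interval of -0.77 to 0.98. Among complex I inhibitors Cox6b2 stood at 0.77 for fenpyroximate, 0.04 for pyridaben, 0.57 and -0.30 for rotenone and -0.75 for tebufenpyrad. The neuronal median of pyridaben was -0.43. Fentin, an inhibitor of ATP synthase with a neuronal median of 0.06, had a Cox6b2 value of 1.56. The relation of Cox6b2 to the neuronal markers was not tested. Cycs was at -0.11 (-0.33 to 0.12) with complex III and -0.19 (-0.46 to 0.08) with complex I inhibitors. The 3 other genes with an unadjusted p under 0.05 for complex I inhibitors were Ndufv2 (-0.25), Cox6c (-0.90) and Cox7c (0.55), with limma adjusted p of 0.19, 0.26 and 0.26. Ndufv2 was at -1.03 in the tebufenpyrad library, -0.42 in the second rotenone library and 0.06 to 0.08 in the other 3. Without tebufenpyrad 0 of the 85 genes had an unadjusted p under 0.05.

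As a family score, the median over the 76 subunits was taken for each library. Vehicle libraries ranged from -0.32 to 0.21 with an SD of 0.09. The 5 complex I libraries lay between -0.05 and 0.10 and the 9 complex III libraries between -0.13 and 0.09, all inside the vehicle range. Fluoxastrobin was the lowest and pyraclostrobin the highest of the complex III class. The 3 fungicides aimed at complex II, boscalid, carboxin and flutolanil at 10 μM, stood at 0.02, 0.09 and 0.03, cyazofamid, which binds the inner quinone site of complex III, at 0.02, and the uncouplers fluazinam at 0.1 μM and niclosamide at 1 μM at 0.05 each. These 6 chemicals had 1 library each. Of the inhibitors of ATP synthase, propargite at 1 μM was at 0.005, whereas fentin at 0.01 μM was at 0.31.

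**Figure D5:**
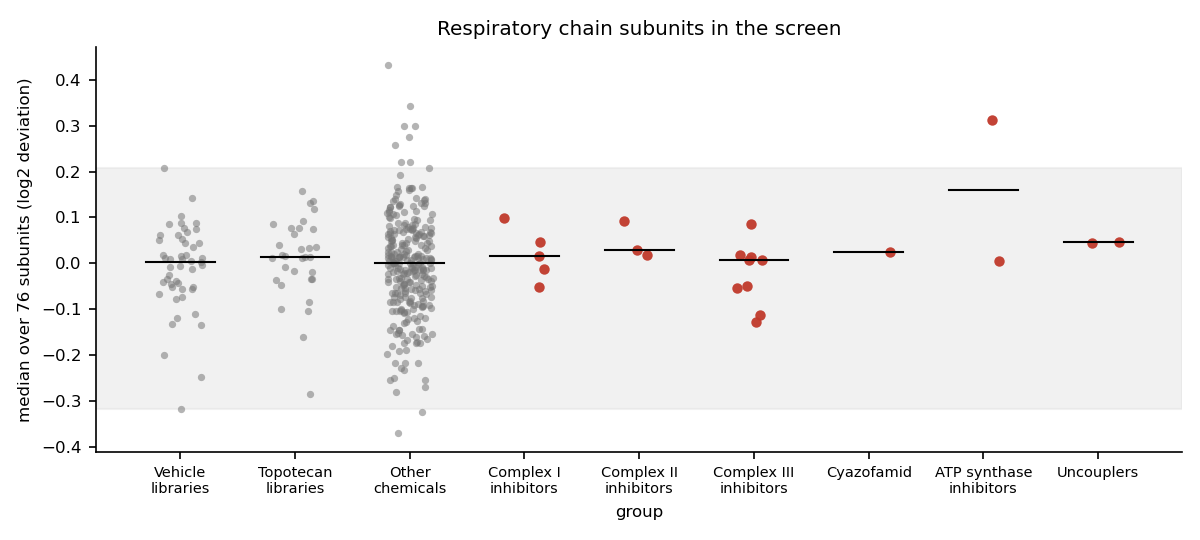
Median log2 deviation over the 76 structural subunits in single libraries (vehicle, topotecan and the classes of respiratory inhibitors) or in chemical medians (other chemicals); black lines are group medians and the grey band is the range of the 49 vehicle libraries, -0.32 to 0.21. All respiratory inhibitors lie inside the band except fentin at 0.31, which lies inside the vehicle range once length and GC trends are removed.

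Fentin, an organotin, was the chemical with the third highest score of all 297, and 68 of the 76 subunits were above 0 in its 1 library. The medians were 0.35, 0.27, 0.25, 0.32 and 0.33 for complexes I to V, so the shift was spread over the chain. The other 4 of the 5 highest scores belonged to spirodiclofen at 10 μM (0.43), methidathion at 10 μM (0.34), cyproconazole at 1 μM (0.30) and metsulfuron at 10 μM (0.30). The 5 lowest were benomyl (-0.37), bensulide (-0.32), thiabendazole (-0.28) and difenoconazole (-0.27), each at 10 μM, and emamectin benzoate at 1 μM (-0.25). Benomyl and thiabendazole are both benzimidazoles that bind tubulin. Thiophanate at 10 μM, a precursor of the same kind of compound, stood at 0.16 in its 1 library. A relation of the score to tubulin binding was not tested. Emamectin benzoate also had the lowest Cycs value among these 10 chemicals, at -1.13. Each of these 10 chemicals had 1 library, and none of the differences has a replicate check. Prochloraz at 10 μM, next in order at -0.25 from the median of its libraries gene by gene, had 2 libraries and was low in both, at -0.21 and -0.38.

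There were 10 chemicals above the highest and 2 below the lowest vehicle library. Where a chemical had 2 libraries, their scores differed by a median of 0.11 and by up to 0.41 (picloram). The 4 libraries of diethyltoluamide lay between 0.0015 and 0.11. With trends on transcript length and GC content removed from each chemical, the SD of the score over chemicals went from 0.11 to 0.07 and that over vehicle libraries from 0.09 to 0.07. The balance then turned, with 0 chemicals above the vehicle range of -0.16 to 0.22 and 12 below it. Fentin lay inside that range. The scores of spirodiclofen, fentin and benomyl were 0.19, 0.15 and -0.24, and those of metsulfuron and cyproconazole 0.01 and 0.11.

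Topotecan, which inhibits topoisomerase 1 and served as the positive control of the screen, moved few of these genes. Over 32 topotecan and 49 vehicle libraries, 7 of the 85 genes were called by limma at an adjusted p under 0.05, against 45.8% of all genes. The calls were 3 rises of 24.8% of all genes and 4 falls of 20.9%. Ndufs4, an accessory subunit of complex I required for a stable enzyme, ranged from -0.49 to 0.34 with a median of 0.02 in vehicle libraries and from -0.91 to 0.13 with a median of -0.23 in topotecan libraries. These ranges overlapped, with the topotecan libraries shifted down. The difference was -0.24 with a standard error of 0.05 (limma adjusted p = 2.1e-05). The gene spans 100300 bases on chromosome 13 from 115078003 to 115178302 of mm9, against a median span of 7.49 kilobases for the family.

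The other falls were of assembly factors of complex I, Ndufaf2 (-0.23, limma adjusted p = 0.049), Ndufaf3 (-0.18, adjusted p = 0.038) and Ndufaf5 (-0.15, adjusted p = 0.031). Ndufaf2 is also long, at 106036 bases, while Ndufaf3 spans 1477. Atp5o has the longest annotated span of the family, at 247290 bases, and was not called. Its annotation shares 12.7% of its exon bases with Donson on the same strand. Whether the span is that of Atp5o alone was not tested. The rises were Ndufb7 (0.35, adjusted p = 0.0082) and Ndufs3 (0.19, adjusted p = 0.021) of complex I and the assembly factor Ndufaf4 (0.15, adjusted p = 0.0029). No gene of complexes II, III, IV or V and not Cycs was called, and the 4 complex II genes lay between -0.05 and 0.05. The median over the 85 genes was 0.03, equal to that of all genes to 2 decimals. With trends on length and GC content removed, however, 16 genes were called, 15 of them lower: Ndufs4, Ndufaf2, Ndufaf3 and Ndufaf5 stayed called lower and Ndufaf4 higher, Ndufb7 and Ndufs3 did not, and Cox8a (-0.13), Cox6a1 (-0.12), Sdhd (-0.10) and Atp5b (-0.08) were among those added. Among the lists, 9 of 38 assembly factors outside the rule rose and 6 fell, 2 of 13 regulators rose and 2 fell, and 1 of 16 citric acid cycle genes rose and 4 fell. Among the markers, 9 of 12 neuronal ones fell and 2 rose, 5 of 9 astrocyte ones fell and 1 rose, and 3 of 7 of the oligodendrocyte lineage rose and 1 fell. Of 6 microglial markers 1 rose and 1 fell, and 1 of 9 mural and fibroblast markers fell. The part of these markers in the result was not tested.

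Across the 297 chemicals the subunits varied together only loosely. The median Spearman correlation over pairs of the 76 subunits was 0.15, from -0.18 to 0.64, while over all pairs of the 13304 genes it was -0.0009. Pairs within 1 complex and pairs of different complexes had medians of 0.14 and 0.15. With trends on length and GC content removed, the median over pairs of subunits was 0.06. The points are chemicals, mostly of 1 library, that share the authors' normalization, and the correlation is given as a description.

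The tightest pair was Atp5a1 and Atp5b at 0.64, followed by Atp5b and Atp5g3 at 0.61, and each of the 10 tightest pairs held Atp5b or Atp5a1. Atp5b also followed the median of the other subunits most closely, at 0.77, before Atp5g3 (0.68), Atp5a1 (0.66), Uqcrc1 (0.61) and Ndufb9 (0.60). With length and GC trends removed the order was Atp5b (0.71), Atp5a1 (0.58), Uqcrc1 (0.51), Atp5f1 (0.49) and Ndufb8 (0.49), and Atp5g3 and Ndufb9 were at 0.41 and 0.36. At the other end stood Cox6a2 (0.07), Cox7a2l (0.07), Ndufb4 (0.14), Uqcrfs1 (0.17), Cycs (0.18) and Cox6b2 (0.18). Some of these are thinly counted and vary widely, with an SD over chemicals of 0.95 for Cox6a2 and 0.99 for Ndufb4. Uqcrfs1 and Cox7a2l, which promotes the joining of complexes III and IV, were steady genes instead, with an SD of 0.11 and 0.16. The median SD over chemicals was 0.28 for the subunits and 0.26 for all genes.

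The genes outside the family whose pattern over the 297 chemicals was most like the subunit median were Mdh2 (Spearman correlation 0.67), Akr1a1 (0.64), Rplp1 (0.64), Atxn10 (0.62), Acot7 (0.62), Mdh1 (0.62), Gnb2l1 (0.58), Prdx5 (0.57), Eif5a (0.56) and Atp6v1h (0.56). Mdh2 and Mdh1 encode the mitochondrial and cytosolic malate dehydrogenases. With trends on length and GC content removed their correlations were 0.56 and 0.61, and those of Rplp1 and Eif5a were 0.47 and 0.37.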

How the data were processed

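Nuclear genes of the respiratory chain were followed in 8 libraries of a count table and 393 of a screen. Members, complexes and gene lists were chosen with earlier results of these data known. Groups came from the sample labels. Reads were cleaned by the authors (TagDust) and placed on mm9 (TopHat); the authors then removed ribosomal reads and counted them over RefSeq exons by gene symbol; these deposited counts are not normalized. For the screen the authors deposited log10 values, made from RPKM by quantile normalization, centring by gene and removal of batch effects, so depth is not known there and batches cannot be examined. The library kit does not mark strand. The study calls the pyraclostrobin replicates biological but gives a smaller number of these than of libraries, so some of the spread that p-values measure may be technical. Libraries were numbered 1 to 4 in the order of the numbers in their column names, which pair each pyraclostrobin column with a vehicle column; 3 of the 4 pyraclostrobin columns are known as such only because the table is one of pyraclostrobin with vehicle, and these numbers need not be the replicate numbers of the labels.

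Counts were analysed with R 4.3.3 and edgeR 4.0.16 (TMM, quasi-likelihood test, a minimum of 10 counts in 4 or more libraries, threshold 0.01), with DESeq2 1.42.0 as an alternative. At the smallest total, 1 CPM is 2.41 counts. Values of the screen were converted to log2 and fitted with limma 3.58.1 without a variance trend (threshold 0.05). Adjustment was by Benjamini-Hochberg over all genes, and tests were two-sided. Length and GC trends were taken out by lowess at a span of 0.3, with lengths from GENCODE on mm9 for all 93 genes. Copies were sought with blastn 2.17.0. Promoters of 77 of the 93 genes were found in RefSeq. Scripts were tested on simulated data. Genes named are the called gene with the largest rise and fall of each complex (mean of at least 50 counts), isoform pairs, the catalytic core, genes of the listed groups, the 10 genes outside the family most like it, the inhibitor classes and the 5 highest and 5 lowest chemicals; others were named after their values were seen. The values of 1 member are not reported here, although it is included in the counts and medians. The alternatives were another normalization, no filter, other thresholds, a replicate block, single libraries, vehicle as the reference, variable genes only and each library or chemical left out. A count table for sulforaphane with fenamidone, with 6 columns that could not be told apart by name, was not used.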

Additional observations from a re-analysis of the deposited data

Results flagged for a closer look

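Within the 4 vehicle libraries of the count table, library 1 lay farther above the others than Dixon's ratio allows at the critical value of 0.829. The ratio was 0.902 for the median of the structural subunits, 0.866 for complex I, 0.964 for complex II, 0.870 for complex III, 0.943 for complex IV and 0.908 for complex V. Those medians are of deviations from the mean of vehicle libraries 2 to 4. That reference leaves out library 1 and draws the other vehicle libraries together, so it partly sets these ratios. Single genes were examined without that reference. Their ratio was 0.891 for Cox7a2l, 0.959 for Ndufa4, 0.839 for Atp5g3, 0.881 for Ndufv2, 0.894 for Sdhc, 0.834 for Uqcrfs1 and 0.834 for Atp5b. The sets and genes named are 13 of 73 groups of libraries or chemicals examined, genes of 1 library are not independent, and chance alone gives about 1 in 20. None of the pyraclostrobin groups, the 2 classes of inhibitors or diethyltoluamide was among them.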

How the results depend on the processing

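For pyraclostrobin, the count of called genes was 1 and remained 1 with DESeq2, with median-ratio size factors and with no filter. It was 2 with length and GC trends removed and 2 at a threshold of 0.05, and 0 to 7 when 1 library was left out. Chosen after the data were seen, leaving out both libraries numbered 1 gave 10 called genes and a median of 0.15, and leaving out vehicle library 1 with length and GC trends removed gave 6 and a median of 0.07. The median over the family lay between -0.15 and 0.20 over all alternatives. A block for the replicate number, for which same-numbered libraries deviated together with correlations of 0.38, 0.10, -0.03 and 0.16, left 1 gene called and a median of -0.01, and the numbers were not taken as pairs.

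For complex III inhibitors, 2 genes (Cox8a and Atp5d, higher) were called with length and GC trends removed, 3 with single libraries against vehicle (Sdhc higher, Ndufb11 and Ndufaf4 lower), and 0 to 1 when a chemical was left out. For complex I inhibitors and for the contrast of both classes the count was 0 under every alternative run. For topotecan it was 16 with length and GC trends removed, 3 at a threshold of 0.01 and 1 among variable genes only, where 33 of the 85 genes could be tested. The sulforaphane comparison was not run. Among all genes, the pyraclostrobin calls moved from 2631 by over 1.5 times to 1682 without vehicle library 3, 4052 without vehicle library 1, 4773 without both libraries numbered 1 and 4301 at the threshold of 0.05. Those of complex III inhibitors moved from 2804 to 1848 without pyraclostrobin and 1811 without trifloxystrobin, and to 492 among variable genes. Those of complex I inhibitors moved from 782 to 31 without fenpyroximate, 468 without pyridaben, 434 at a threshold of 0.01 and 64 among variable genes, and those of topotecan from 6087 to 1784 among variable genes. The family median changed sign for topotecan with length and GC trends removed (-0.03) and for complex III inhibitors with those trends removed (0.002) or without fluoxastrobin (0.005). Low counts limit the genes below the filter, and the depth of the screen is unknown.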

Other observations

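The exons of some family members overlap those of other annotated genes, and the libraries do not mark strand. The shared part was 38.998% of the exon bases of Ndufb6 (with a noncoding transcript), 38.7% of Cox5a (with a long noncoding RNA), 30.2% of Ndufa13 (with Tssk6) and 12.7% of Atp5j (with Gabpa, whose product regulates respiratory chain promoters). Atp5j had 88.3, 73.3, 61.3 and 82.5 CPM with pyraclostrobin and 107, 61.5, 51.2 and 45.6 CPM with vehicle. Gabpa had 98.5, 51.1, 73.1 and 61.6 CPM with pyraclostrobin and 47.4, 45.1, 38.4 and 43.2 CPM with vehicle. The share of reads that each gene gave to the other was not tested. These genes were chosen after their values were seen.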
